A study of Homo sapiens with 3 samples.

Results

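A set of 1950 intergenic ETS1 binding peaks that lay within reach of a protein-coding gene was examined here, out of 26970 peaks in the consensus list of the study and 26958 on chromosomes 1 to 22 and X (7.23%, 95% Wilson interval 6.93 to 7.55%). A peak was taken when its midpoint was more than 1500 bp from every annotated transcription start site (TSS), outside all gene bodies and less than 50 kb from the nearest canonical protein-coding TSS. Peaks that overlapped one of the 1900 highest-ranked regions of the acetylated histone mark H3K27Ac, as the study ranked them, were left out. The rule used positions and the H3K27Ac ranks, and no strength of ETS1 binding.

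ETS1 binding had been mapped by chromatin immunoprecipitation and sequencing (ChIP-Seq) in SCC25, an established tongue cancer line of squamous origin that the labels call a mesenchymal line of head and neck cancer. The 3 samples were ChIPs of the same cell line with no treatment named in the labels, of which 2 used the antibody C20 and 1 used 501A, both raised against ETS1. Their peaks were combined into 1 list of chromosome, start and end on the hg19 build, with no summit, score, read count or value for a single sample. The list gave no spread between samples and no depth, so that the antibodies could not be compared, and every interval and p-value below rests on counts of peaks in 1 pooled list and covers counting error only.

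ETS1 is the founding member of the ETS family of transcription factors, which bind DNA through a winged helix-turn-helix domain at sites built around the letters GGAA. ETS factors often act beside AP-1, the dimers of FOS and JUN proteins that bind TGAGTCA, and both families are known for transmitting growth factor signals to genes of proteolysis, migration and inflammation. Many such genes are controlled from enhancers, stretches of open chromatin between genes or within them that are bound by several factors at a time.

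Among the 5144 peaks that were distal to every TSS and outside gene bodies, the 1950 peaks made up 37.9%, with the rest either 50 kb or more from a coding gene (1811 peaks, called far intergenic below) or in a ranked H3K27Ac region (1383 peaks, 897 of them within 50 kb). They covered 1711 kb in all and had 1440 different coding genes as their nearest. The label of the set was checked against the annotation. The nearest TSS of any kind belonged to a coding gene at 1078 peaks (55.3%), to a long noncoding RNA at 419 (21.5%) and to another class of transcript at 453, and 53 peaks (2.72%) had an edge that reached into a gene body although the midpoint did not. At the limits of the rule, the nearest peak inside the 1500 bp limit was 1502 bp from a TSS (near ASAP1) and the nearest outside it 1498 bp (near LAG3). For the 50 kb limit these distances were 49978 bp (near RB1CC1) and 50018 bp (near LMTK2).

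The sequences below show what these peaks hold on the plus strand of GRCh37, the sequence of hg19. Capitals mark the ETS core, taken here as AGGAAA and also as AGGAAG on either strand, and the AP-1 letters TGAGTCA on either strand. A core on the minus strand shows as TTTCCT in the first form and shows as CTTCCT in the second. The longer ETS letters CCGGAAG do not contain this core and were searched apart from it. The first 5 lie near genes of the AP-1, squamous epithelial, protease, cytokine and ETS family lists. Each window of 120 bp is centred on the ETS core closest to the peak midpoint. A peak with both the ETS core and the AP-1 letters in its 600 bp was taken where the gene had one. Otherwise the peak nearest to the TSS was taken. These windows therefore do not show how often the letters occur together. They are chr14:75701387-75701506 (44.15 kb upstream of FOS, an AP-1 subunit), chr1:27198938-27199057 (9.47 kb downstream of the TSS of SFN, the 14-3-3 protein of squamous epithelium), chr10:75659333-75659452 (upstream of PLAU, the urokinase protease), chr22:30622558-30622677 (LIF, a cytokine) and chr1:201987599-201987718 (ELF3, an epithelial ETS factor).
FOS: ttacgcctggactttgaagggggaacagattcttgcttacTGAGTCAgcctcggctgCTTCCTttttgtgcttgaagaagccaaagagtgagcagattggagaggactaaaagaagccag
SFN: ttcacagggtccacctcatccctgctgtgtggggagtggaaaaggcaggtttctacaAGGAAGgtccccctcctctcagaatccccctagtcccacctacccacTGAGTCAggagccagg
PLAU: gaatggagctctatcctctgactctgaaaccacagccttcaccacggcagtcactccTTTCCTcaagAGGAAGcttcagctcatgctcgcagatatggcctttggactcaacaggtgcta
LIF: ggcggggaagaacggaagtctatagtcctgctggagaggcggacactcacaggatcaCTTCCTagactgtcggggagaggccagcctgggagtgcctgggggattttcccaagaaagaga
ELF3: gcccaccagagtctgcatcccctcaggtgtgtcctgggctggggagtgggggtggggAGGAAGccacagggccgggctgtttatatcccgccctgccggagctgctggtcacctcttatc

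In the PLAU window a pair of cores faced each other on opposite strands, whereas the FOS and SFN windows held an ETS core and an AP-1 match. The next 4 windows of 60 bp show how close the 2 kinds of letters can lie, and were picked after the values had been seen, among 47 peaks considered for printing that held both with at most 4 bases between them. They are chr1:150949965-150950024 (nearest CERS2, a ceramide synthase gene, 2.65 kb upstream, 0 bases between), chr20:42539824-42539883 (TOX2, 4 bases between), chr19:18788976-18789035 (CRTC1, a coactivator of CREB, 1 base between) and chr2:10177904-10177963 (KLF11, a zinc finger factor, 1 base between).
CERS2: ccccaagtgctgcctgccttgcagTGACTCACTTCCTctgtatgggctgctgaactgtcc
TOX2: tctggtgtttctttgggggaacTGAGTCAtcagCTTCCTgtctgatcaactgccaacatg
CRTC1: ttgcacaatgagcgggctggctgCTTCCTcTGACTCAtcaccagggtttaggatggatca
KLF11: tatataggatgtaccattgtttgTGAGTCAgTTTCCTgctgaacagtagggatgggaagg

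The last pair was also picked after the values had been seen, from CpG-rich windows, a smaller group of the peaks, and capitals mark the longer ETS letters CCGGAAG, which lie on the minus strand in the first window and on the plus strand in the second. They are chr16:89307652-89307711 (ZNF778, a zinc finger gene, 23.6 kb downstream of its TSS) and chr2:25438972-25439031 (POMC, the precursor of melanocortin peptides, 47.5 kb upstream).
ZNF778: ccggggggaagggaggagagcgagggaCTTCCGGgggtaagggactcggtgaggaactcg
POMC: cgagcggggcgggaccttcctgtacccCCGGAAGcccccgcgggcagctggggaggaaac

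Of 23 motifs searched, the AP-1 letters had the widest difference in share between the peaks and their surroundings. TGAGTCA was present in 35.4% of the peak windows (600 bp around the midpoint), over 1826 peaks with a comparison window. The comparison windows had the same length, lay 5000 bp downstream and held no peak, and 8.43% of them had the letters. For these windows downstream means toward higher coordinates and upstream toward lower ones, whatever the strand of the nearest gene. In 588 pairs the match was in the peak window alone and in 96 pairs in the downstream window alone, an odds ratio of 6.13 (two-sided exact McNemar test with Benjamini-Hochberg adjustment over 23 motifs, adjusted p = 9.21e-86). The ETS core was present in 84.8% of peak windows and 70.8% of downstream windows, with 446 and 190 discordant pairs (odds ratio 2.35, exact adjusted p = 6.53e-24). The core is short and common in any sequence, as its share downstream shows, and GGAA alone was in 99.8% and 98.5% of windows. Among all 26958 peaks the shares were 25.2% for AP-1, 79.2% for the core and 99.7% for GGAA.

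The longer ETS letters CCGGAAG and CAGGAAG had larger odds ratios than the core, a difference that was not tested. The shorter GGAA had the largest (6.75, from 27 and 4 discordant pairs). In the pairs of like GC content described below the order turned, with 2.86 for the core, 2.5 for CCGGAAG and 1.72 for CAGGAAG. In windows of 1000 bp CAGGAAG (2.14) was below the core (2.70) and CCGGAAG (3.36) above it. CCGGAAG was found in 8.82% of peak windows against 2.41% downstream (odds ratio 3.93, exact adjusted p = 5.33e-17), and CAGGAAG, which holds the core, in 38.3% against 19.8% (odds ratio 2.50, exact adjusted p = 4.38e-33). Over all peaks of the list these were in 14.6% and 32.2%. Peak windows also held more cores each, with a mean of 2.01 ± 1.51 (SD over windows) against 1.51 ± 1.69. No core was present in 15.2% of peak windows and in 29.2% of downstream windows, and 4 or more were present in 14.9% and 8.87%.

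**Figure D1:**
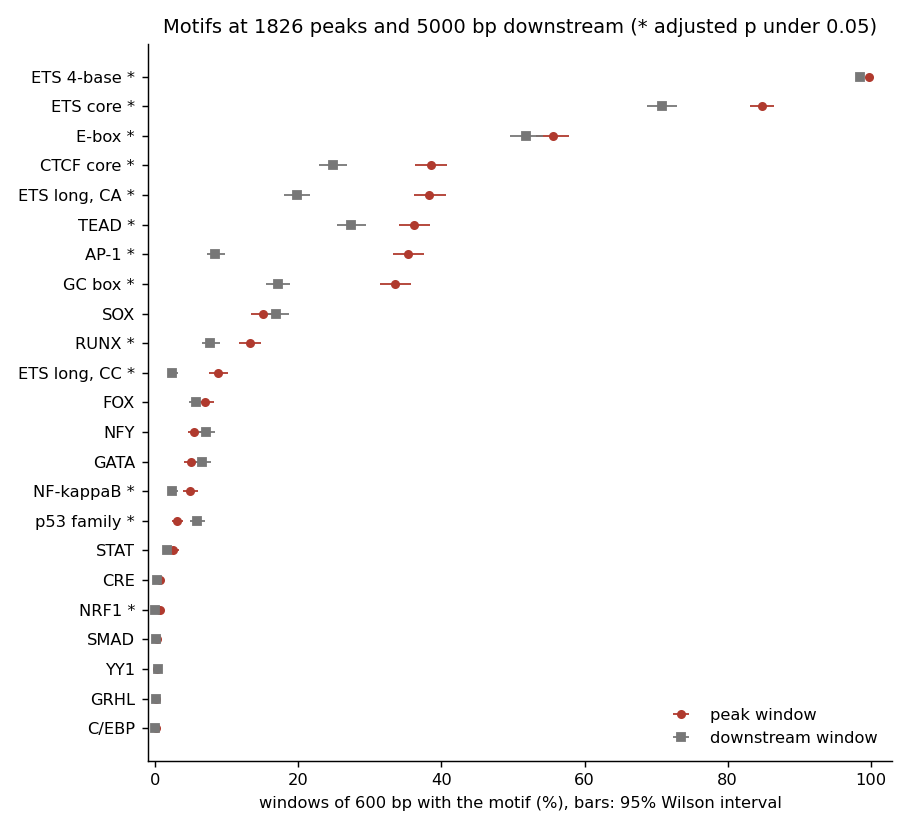
Share of 600 bp windows that held each of 23 motifs (x axis, percent, with 95% Wilson intervals), in peak windows (circles) and in windows 5000 bp downstream (squares), over 1826 pairs. Downstream here means toward higher coordinates. ETS core stands for AGGAAA or AGGAAG, ETS 4-base for GGAA, and the long forms for CCGGAAG (CC) and CAGGAAG (CA). AP-1 shows the widest gap, 35.4% against 8.43%, and the p53 family is the only starred motif that is lower at the peaks, a call that was lost against windows upstream (odds ratio 0.838).

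Of the 23 motifs, 12 were more frequent at the peaks and 1 was less frequent at an adjusted p under 0.05. Beyond the ETS and AP-1 letters, the higher ones were RUNX (TGTGGTT, 13.3% against 7.72%), TEAD (GGAATG, which shares the letters GGAA, 36.2% against 27.4%), the core of CTCF (38.5% against 24.9%), the GC box of SP factors (GGGCGG, 33.5% against 17.1%), NF-kappaB (4.87% against 2.46%) and NRF1 (0.657% against 0.0548%). The CTCF core was searched as AGGGGGC, with AGGTGGC as a further spelling and with AGATGGC as the last. The NRF1 call was lost in 5 of 7 alternative settings, with adjusted p-values of 0.0749 to 1.0 by the exact test. NF-kappaB was searched as GGGANTTCC and NRF1 as GCGCATGCG. RUNX factors are common partners of ETS1 in lymphoid cells, and TEAD factors act with YAP at enhancers of epithelial tumors. The E-box CAGGTG, a site of SNAI and ZEB repressors, was in 55.5% against 51.9% (exact adjusted p = 0.0486), a call that was lost in 6 of 7 alternative settings, with an odds ratio of 0.734 in pairs of like GC content and adjusted p-values of 0.0787 to 0.639 by the exact test over the 6. The p53 family letters (a pair of CATG with starts 10 bases apart), which also serve TP63 of squamous epithelium, were in 3.07% of peak windows against 5.86% (odds ratio 0.510, exact adjusted p = 0.000132). This call was lost against windows 5000 bp upstream (3.20% against 3.80%, odds ratio 0.838, exact adjusted p = 0.534), in 200 bp windows (odds ratio 0.629, exact adjusted p = 0.170) and in pairs of like GC content (odds ratio 0.867, exact adjusted p = 1.0). All matches were counted on both strands.

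For comparison, all peaks of the list held RUNX in 10.4%, TEAD in 29.6%, the CTCF core in 42.0%, the GC box in 51.5%, NF-kappaB in 3.85%, NRF1 in 1.54%, CAGGTG in 48.0% and the p53 family letters in 1.80%. The other 10 motifs did not pass the test. Of these, SOX (searched as ACAATGG and in a further spelling as ACAAAGG) was in 15.1% of peak windows against 16.9%, FOX (TGTTTAC) in 6.96% against 5.75%, NFY (AGCCAAT) in 5.53% against 7.12% and the letters AGATAAG of GATA factors in 5.04% against 6.63%. STAT (TTCCNGGAA, which contains ETS letters) was in 2.52% against 1.70%. CRE (TGACGTCA), SMAD (GTCTAGAC), YY1 (AAGATGGCG), GRHL (AACCGGTT) and C/EBP (TTGCGCAA) were each in under 1% of windows. Over all peaks SOX was in 13.7%, FOX in 5.26%, NFY in 6.95%, GATA in 4.37%, STAT in 2.47%, CRE in 1.63%, SMAD in 0.464%, YY1 in 2.0%, GRHL in 0.256% and C/EBP in 0.215%.

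Base composition moved with these results. The mean GC content was 54.4% in peak windows and 47.6% downstream, and was higher at the peak in 1461 of 1826 pairs (80.01%). Among the 270 pairs whose windows differed by at most 2 percentage points of GC, 4 motifs were higher and 0 lower, with 0 lower at an unadjusted p under 0.05 as well (exact McNemar test). AP-1 was in 37.8% against 6.67% there (exact adjusted p = 4.50e-16), the ETS core in 87.4% against 72.2% (exact adjusted p = 0.000113), RUNX in 14.8% against 5.19% (exact adjusted p = 0.00235) and CAGGAAG in 38.5% against 25.9% (exact adjusted p = 0.0194). CCGGAAG was in 7.41% against 2.96% in these pairs (exact adjusted p = 0.137), the GC box in 23.7% against 20.7% (exact adjusted p = 0.919), the CTCF core in 38.1% against 34.1% (exact adjusted p = 0.862), TEAD in 38.9% against 30% (exact adjusted p = 0.137) and NF-kappaB in 4.07% against 2.96% (exact adjusted p = 0.988). Beyond these pairs, the part of base composition in the motif contrasts was not tested.

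All 2080 hexamers, with both strands merged, were tested in the same way to give the background for the named motifs. At an adjusted p under 0.05, 761 hexamers (36.6%) were higher and 698 (33.6%) lower at the peaks than downstream. All 36 hexamers made of G and C alone were higher and all 36 made of A and T alone were lower. The largest odds ratios belonged to CpG-holding hexamers, GCGCGC (5.0), CGCGGA (4.64), CCGCGG (4.34), CGCGGC (4.33) and CGCCGC (4.12), and the smallest to AAATTA (0.231), TACTAA (0.244), AAAAAT (0.246), ATACAA (0.247) and TAAAAA (0.249). In the pairs of like GC content the numbers of calls were 23 higher and 29 lower.

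Hexamers were therefore also ranked among those with as many G and C bases. GACTCA and GAGTCA, which are the inner part of the AP-1 letters, ranked 1 and 2 of 640 (odds ratios 3.13 and 3.08). CAGGAA ranked 4 and AGGAAG ranked 5 of these 640 (2.29 and 2.26), and CCGGAA ranked 3 of 492 (3.50). AGGAAA, which has fewer G and C bases, ranked 5 of its 492 with an odds ratio of 1.36. Of the cores with another last base, AGGAAT was not called (1.04, exact adjusted p = 0.692). AGGAAC was higher (1.33, exact adjusted p = 0.00033) and ranked 128 of its 640. Of the 48 hexamers that hold GGAA, 35 were higher and 2 lower. These hexamers share letters and are not independent of each other.

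The matches were concentrated at the middle of the peaks. Within 100 bp of the midpoint the AP-1 letters occurred 0.964 times per kb, against 0.167 per kb at 1500 to 2000 bp, a ratio of 5.79. CCGGAAG had 0.256 against 0.0569 matches per kb (ratio 4.51), the GC box 1.25 against 0.414 (3.03), CAGGAAG 1.03 against 0.371 (2.77) and the CTCF core 0.913 against 0.573 (1.59). The short ETS core had the highest density and the lowest ratio, 3.72 against 2.53 matches per kb (1.47). Since the list gives no summit, the midpoint stands in for the position of binding.

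**Figure D2:**
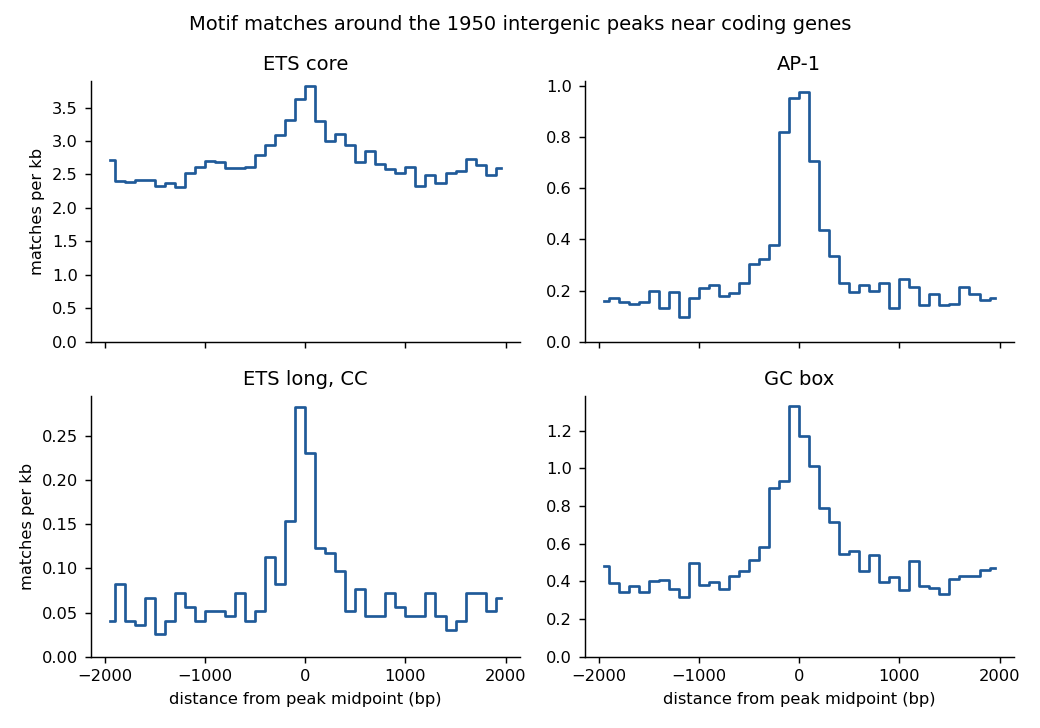
Matches per kb (y axis) in bins of 100 bp by distance from the midpoint of the 1950 peaks (x axis, bp), for the ETS core (AGGAAA or AGGAAG), AP-1, the long ETS letters CCGGAAG and the GC box. Each curve is highest at the midpoint, with AP-1 at 0.964 per kb within 100 bp against 0.167 per kb from 1500 bp outwards.

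The ETS core and the AP-1 letters were found together about as often as the share of each would give. Both were present in the window of 574 peaks (29.4%, 95% Wilson interval 27.5 to 31.5%) and neither in 182 (9.33%). The ETS core alone was in 1076 (55.2%) and AP-1 alone in 118 (6.05%). A peak counted without the core may still hold CCGGAAG, which was not counted here. The product of the single shares is 30.0%, so that the letters did not occur together more often than that. In the downstream windows both were present in 6.24% and neither in 27%. The peaks with both had a median width of 688.5 bp and a CpG-rich window in 2.09%, while those with neither had a median width of 822 bp, a median GC content of 57.9% and a CpG-rich window in 27.5%. The distance between the closest ETS core and AP-1 match had a median of 55.5 bp in 540 peaks and of 77 bp in 114 downstream windows. Peak windows also held more cores each, and the part of this in the shorter distance was not tested. The matches overlapped in 11 peaks and 0 downstream windows. From 0 to 4 bases lay between them in 45 peaks and 5 downstream windows, 5 to 9 bases in 34 and 7, 10 to 19 bases in 53 and 6, and 20 to 49 bases in 112 and 16. The composite windows printed above for CERS2, TOX2, CRTC1 and KLF11 belong to the group with 0 to 4 bases between.

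The peaks were next set against 4 other classes of the same list, far intergenic peaks, intergenic peaks in ranked H3K27Ac regions, peaks in gene bodies (5184) and peaks within 500 bp of a TSS (11684, promoter). They were wider than far intergenic and gene body peaks and narrower than the other classes. Their widths ran from 248 to 6203 bp with a median of 744 bp (508 and 1076 bp at the quartiles), against medians of 608 bp far from genes, 651 bp in gene bodies, 915 bp in ranked regions and 1262 bp at promoters. A width above the 969 bp median of all peaks was found for 620 peaks (31.8%, 29.8 to 33.9%), against 22.03% of far peaks (two-sided Fisher's exact test, Benjamini-Hochberg over 12 tests, odds ratio 1.65, adjusted p = 2.24e-11) and 25.1% of gene body peaks (1.39, adjusted p = 2.06e-08). In ranked regions the share was 46.5% (0.537, exact adjusted p = 1.22e-13) and at promoters 71.1% (0.189, exact adjusted p = 3.39e-237). Overlap with a ranked region was judged over the whole peak, which wider peaks meet more easily. The part of this in the contrast with ranked regions was not tested.

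The 5 widest peaks were near EGFL7, a secreted endothelial factor (6203 bp, chr9:139514557-139520759, 39710 bp upstream), PPFIA1, a liprin of focal adhesions (4477 bp, chr11:70089933-70094409), RHPN1 (3861 bp), RPL3, a ribosomal protein gene (3454 bp, chr22:39685696-39689149), and PLXND1, a semaphorin receptor (3446 bp, chr3:129343765-129347210). An ETS core was in the middle 600 bp of the first 4 of them, whereas the PLXND1 peak held CCGGAAG and no core, and none of the 5 held the AP-1 letters there. From the narrowest to the widest of 4 groups of equal size, the share with AP-1 went from 38.7% to 29.3%, that with the ETS core from 86.9% to 82.8% and that with a CpG-rich window from 2.66% to 18.4%.

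AP-1 letters were less frequent in these peaks than in those farther from genes. They were in 35.5% of the 1950 windows, 43.6% of far intergenic windows (odds ratio 0.711, Fisher's exact test with Benjamini-Hochberg adjustment over 92 tests, adjusted p = 1.84e-06) and 40.5% of gene body windows (0.809, adjusted p = 0.000486), and in 9.48% at promoters (5.25, adjusted p = 3.84e-169). No difference was detected from the peaks in ranked regions (37.6%, odds ratio 0.914, exact adjusted p = 0.541). Without CpG-rich windows in either class, a comparison added after seeing the data, the difference from far peaks remained (38.8% against 45.7%, odds ratio 0.754, adjusted p = 0.000493) and that from gene bodies missed the threshold (38.8% against 42.0%, odds ratio 0.875, exact adjusted p = 0.103). Against promoters the odds ratio was then 1.56 (38.8% against 28.9%, exact adjusted p = 6.70e-10).

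The ETS core was in 84.6% of the peaks, 87.2% of far peaks (exact adjusted p = 0.0686), 82.5% in ranked regions (exact adjusted p = 0.321), 87.0% in gene bodies (odds ratio 0.82, exact adjusted p = 0.0323) and 71.3% at promoters (odds ratio 2.22, exact adjusted p = 8.17e-37). The contrast with promoters was lost without CpG-rich windows, where the shares were 85.9% and 86.2% (odds ratio 0.975). That with gene bodies was lost there as well (odds ratio 0.857, exact adjusted p = 0.218) and in 200 bp windows (0.878, exact adjusted p = 0.0549). CCGGAAG went the other way, with 8.77% of the peaks against 24.4% at promoters (0.298, exact adjusted p = 2.41e-61), and without CpG-rich windows 7.52% against 11.7% (0.613, exact adjusted p = 8.34e-05). The GC box was more frequent near coding genes than far from them, 33.5% against 23.1% (odds ratio 1.67, exact adjusted p = 1.40e-11), and than in gene bodies, 24.8% (1.53, exact adjusted p = 3.20e-12), and less so than at promoters (80.6%, odds ratio 0.122, and 0.471 without CpG-rich windows). Of the 23 motifs, 4 were higher and 2 lower than in far peaks, 4 higher and 3 lower than in gene bodies, 10 higher and 7 lower than at promoters, and 0 passed against the ranked regions by Fisher's exact test, where 0 also had an unadjusted p under 0.05.

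**Figure D3:**
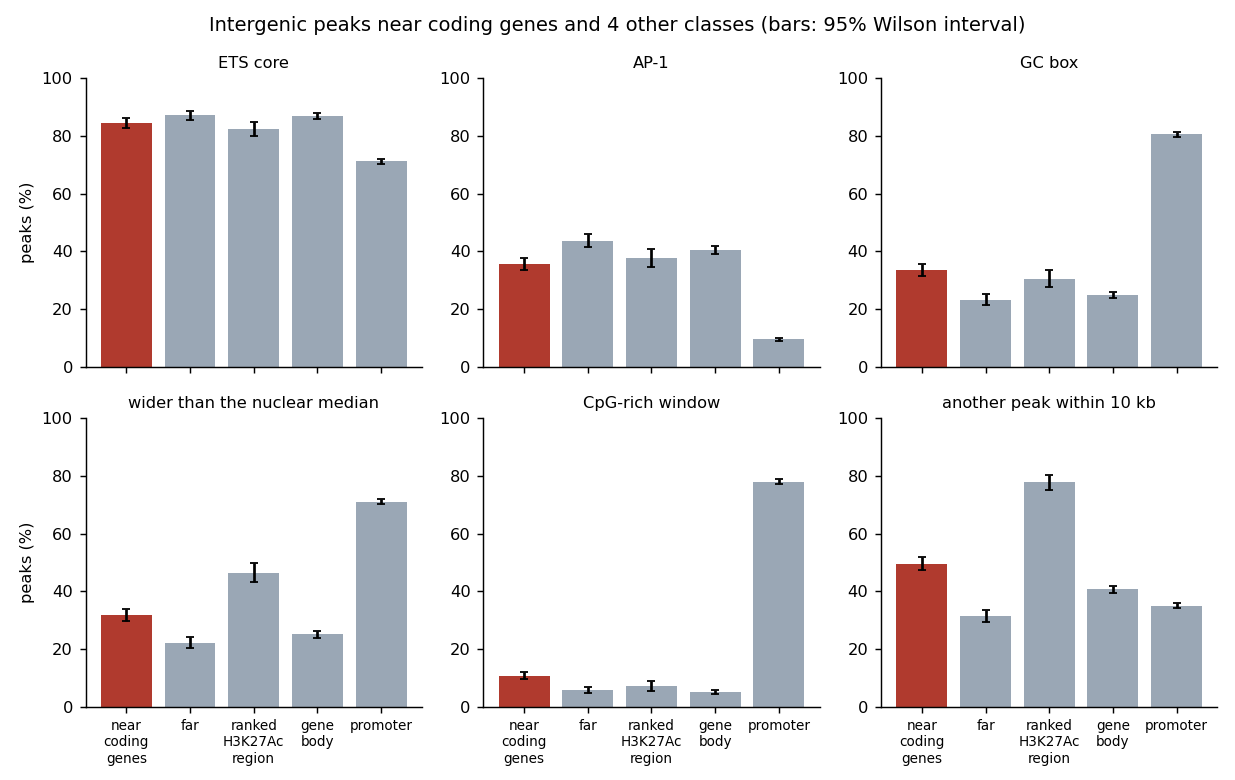
Shares of peaks (y axis, percent, with 95% Wilson intervals) in the 1950 intergenic peaks near coding genes (red) and in 4 other classes (grey), for 3 motifs in the upper row and 3 features in the lower row. AP-1 letters are in 35.5% of the red class and 43.6% of far peaks, and another peak lies within 10 kb of 49.6% and 31.4%.

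A CpG-rich window, with GC content over 50% and observed to expected CpG over 0.6, was found at 209 of the 1950 peaks (10.7%, 9.42 to 12.2%). This was more than at far peaks (5.80%, odds ratio 1.95, exact adjusted p = 5.15e-08), in ranked regions (7.02%, 1.59, exact adjusted p = 0.00158) and in gene bodies (5.05%, exact adjusted p = 5.45e-16), and far less than at promoters (78.1%, 0.0337). The CpG-rich peaks had a median width of 1019 bp against 710 bp for the other 1741, and a median distance to the nearest TSS of any kind of 7300 bp against 9071 bp. They held the GC box in 81.3% against 27.7%, CCGGAAG in 19.1% against 7.52%, the ETS core in 74.2% against 85.9% and AP-1 in 7.66% against 38.8%. The ZNF778 and POMC windows shown above are examples, with a GC content of 66.0% and 70.7%.

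Neighbouring peaks were frequent. Another peak of the list had its midpoint within 10 kb of 968 of the 1950 peaks (49.6%), against 31.4% of far peaks, 40.7% of gene body peaks, 35.1% of promoter peaks and 77.9% in ranked regions. These shares are a description, since the classes were cut by position, and far peaks by rule have no canonical coding TSS, and so no peak at one, within 10 kb. The nearest peak was another one of the set for 792 (40.6%) and a promoter peak for 738. In runs along the chromosome that counted peaks of the set only, 1325 peaks were in a run of 1, 219 pairs and 41 triples were found, and 14 runs held 4 peaks. A peak in a run of 1 could still have a peak of another class nearby. The longest run held 8 peaks over 25.4 kb (chr1:16490632-16516067) between EPHA2 and ARHGEF19.

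Relative to the sequence that met the rule on position, 280 Mb in all, the peaks had a density of 6.96 per Mb (exact 95% Poisson interval 6.66 to 7.28), against 2.52 per Mb (2.40 to 2.64) for far intergenic sequence. It went from 8.36 per Mb (7.34 to 9.49) at 1.5 to 5 kb from the coding TSS to 5.88 (5.14 to 6.69) at 40 to 50 kb, while the median width went from 808 to 682 bp. By chromosome it was highest on chromosome 22 (15.6 per Mb, 12.1 to 19.9), 16 (13.6) and 19 (12.6), and lowest on X (1.56, 1.08 to 2.18), 4 (2.43) and 13 (3.39).

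The peaks lay upstream of their nearest coding gene less often than the eligible sequence did. This held for 1384 of 1950 (71.0%, 95% Wilson interval 68.9 to 73.0%), against 74.4% of the sequence (two-sided exact binomial test, p = 0.000675). Upstream peaks had a median distance of 16960 bp to the TSS and downstream ones, which lie past the end of the gene, of 23160 bp. In each of 6 distance bins the density was higher on the downstream side, and the intervals were apart at 5 to 10 kb (7.29 per Mb upstream and 10.6 downstream) and at 20 to 30 kb (6.19 and 9.30).

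Peaks on the 2 sides also differed in kind, as described here without a test. At 10 to 20 kb, where the sides were farthest apart in ETS core and CpG-rich share, the 339 upstream peaks had a median width of 733 bp and a CpG-rich window in 10.3%, and the 127 downstream peaks 888 bp and 21.3%. AP-1 letters were in 37.8% of the former and 23.6% of the latter, and the ETS core in 88.8% and 76.4%. At 1.5 to 5 kb AP-1 was in 37.4% of 214 upstream and 18.5% of 27 downstream peaks. In 5 of the 6 bins AP-1 was more frequent upstream, the exception being 30 to 40 kb (36.4% upstream and 40.2% downstream). The ETS core was more frequent upstream in 4 bins, and less so at 1.5 to 5 kb (82.2% and 88.9%) and at 40 to 50 kb (80.1% and 84.2%). A CpG-rich window was more frequent downstream in 5 bins, and less so at 5 to 10 kb (11.2% upstream and 9.33% downstream). In all 6 bins the downstream peaks were the wider ones, with medians of 732 to 1003 bp against 648 to 794 bp.

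**Figure D4:**
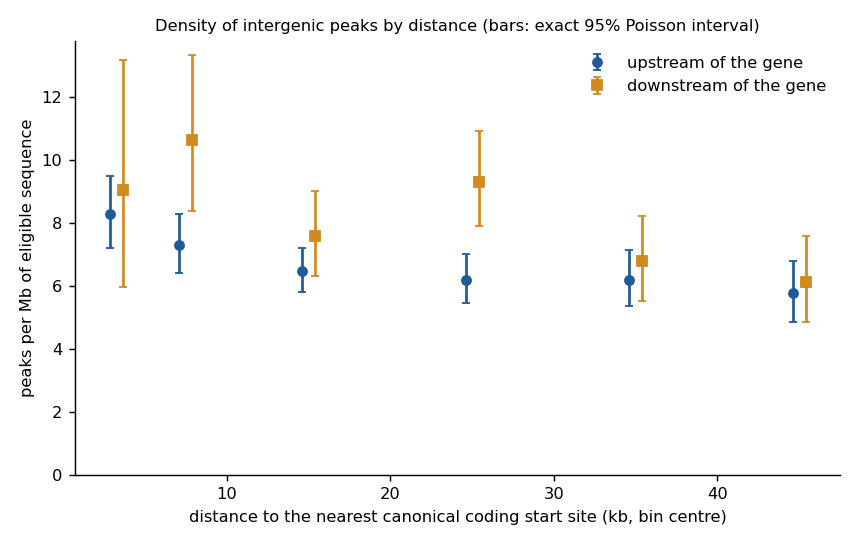
Peaks per Mb of sequence that met the positional rule (y axis, with exact 95% Poisson intervals) by distance to the nearest canonical coding TSS (x axis, kb), upstream (circles) and downstream (squares) of the gene. Downstream values are the higher ones in all 6 bins, for example 9.30 against 6.19 per Mb at 20 to 30 kb.

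At least 1 of the peaks was nearest to 1440 of 19819 coding genes (7.27%). Of these genes, 1088 had 1 peak, 242 had 2, 74 had 3, 29 had 4, 3 had 5, 3 had 6 and 1 had 7. A promoter peak was present at 45.5% of the 1440 genes (42.9 to 48.1%) and at 47.0% of the genes without a peak of the set, a difference within the counting error.

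EPHA2, a receptor tyrosine kinase for ephrins, had the most. Its 7 peaks included 6 upstream, at 8676, 17560, 19862, 22963, 26045 and 28154 bp from the TSS (chromosome 1, 16482564, minus strand), and 1 at 33223 bp on the other side. Their widths ran from 633 to 2488 bp, 6 held the ETS core and 3 AP-1, and the promoter of EPHA2 held no peak. PLAU, the urokinase that activates plasminogen at the cell surface, had 6 peaks of 440 to 929 bp at 4176 to 29747 bp from its TSS (chromosome 10, 75670890, plus strand), 4 of them upstream. Of the PLAU peaks 5 held the ETS core and 4 AP-1, and its promoter was bound as well. Both genes had peaks on either side of the TSS, with the majority upstream.

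FGF3 and FGF19, neighbouring fibroblast growth factor genes on chromosome 11, had 6 and 5 peaks. Those of FGF3 ran up to 2812 bp in width (chr11:69638386-69641197) and those of FGF19 lay 3320 to 30169 bp upstream, and the ETS core was in 5 of 6 and in 5 of 5. LIF, a cytokine, had 6 peaks, 2 upstream and 4 downstream at 4212 to 36157 bp, with AP-1 in all 4 downstream ones and in neither upstream one. ARAP3, a GTPase-activating protein, had 5 upstream peaks that all held the ETS core and none AP-1. DLK1, a Notch ligand homolog, had 5, among them 1 of 3330 bp (chr14:101157046-101160375).

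Another 8 genes of those named by count had 4 peaks each. All 4 lay upstream at FAM131C, at KRT75 (a hair follicle keratin), at PGF (a growth factor of vessels) and at TMEM106C, within 9075, 8495, 17811 and 16945 bp of the TSS. At CEBPA, a factor of myeloid and epithelial differentiation, and at S100A6, a calcium-binding protein, all 4 lay downstream. The CEBPA peaks held AP-1 in 3 and the ETS core in 1, and the S100A6 peaks AP-1 in 2 and the ETS core in 4. Of the CEBPA peaks without the core, that at chr19:33781612-33782263 held CCGGAAG. ID1, which blocks basic helix-loop-helix factors, had 2 on each side within 11435 bp, and KLHL36 also had 2 on each side, with no AP-1 letters.

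Genes of 12 lists were then counted by whether an intergenic peak of the set was nearest to them, beside the 7.27% of all coding genes. Intergenic peaks in ranked H3K27Ac regions were outside the set, so that a gene not counted here may still have such peaks. No list was tested, since the lists were written with earlier results of these data known. Genes differ in how much eligible sequence lies around them, so that peaks per Mb of it are given as well. The AP-1 family had 9 of 17 genes (52.9%, 95% Wilson interval 31.0 to 73.8%) and 10 peaks. FOS had 2, at 44149 and 48394 bp upstream, and FOSL1 (a FOS relative, 3058 bp upstream) and BATF (7203 bp upstream) had 1 each. Per Mb of eligible sequence the list had 25.5 peaks (12.3 to 47.0), against 6.96 for all.

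Proteases and their inhibitors had a peak at 7 of 20 genes (35.0%), with 13 peaks or 29.2 per Mb (15.5 to 49.8). Beside PLAU, MMP9, a gelatinase, had 2 (3773 and 15288 bp upstream), PLAUR, the receptor of urokinase, 1 (5517 bp upstream) and PLAT, the tissue plasminogen activator, 1 (7819 bp upstream). All 4 of the MMP9, PLAUR and PLAT peaks held the ETS core and 3 held AP-1. Cytokines and chemokines had 8 of 22 genes (36.4%), with 19 peaks or 28.3 per Mb (17.0 to 44.2). After LIF they were led by CCL20, a chemokine (4 peaks, 4812 to 25982 bp), CSF1, a macrophage growth factor (3, all upstream), and CXCL2 (2, both upstream). None of the CCL20, CSF1 and CXCL2 peaks held AP-1 letters.

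Feedback genes of EGFR and MAPK signalling had 5 of 22 genes (22.7%), or 8.83 peaks per Mb (3.24 to 19.2, which included the value of all genes). SPRY4, an inhibitor of receptor signalling, had 2 (31382 and 41452 bp downstream), and SPRY2 (1844 bp), IER2 (22079 bp) and DUSP1, a MAPK phosphatase (37690 bp), had 1 each. Transcription factors of epithelial-mesenchymal transition had 3 of 12 (25%), SNAI1 with 2 peaks (12892 bp upstream and 37231 bp downstream, both with AP-1 and ETS letters), SNAI3 and GSC with 1 each. Genes of TGF-beta and BMP signalling had 3 of 22 (13.6%), ID1, NOG and SMAD7. Their intervals per Mb (3.43 to 32.3 for the transition factors and 3.18 to 18.9 for the TGF-beta list) included the value of all genes.

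Mesenchymal and matrix genes had 1 of 21 (4.76%), or 7.48 peaks per Mb (1.54 to 21.9). Squamous epithelial genes had 2 of 25 (8.0%), SFN and DSG3, a desmosomal cadherin, with 1 peak each, or 5.90 per Mb (0.715 to 21.3). The ETS family had 1 of 27 (3.70%), ELF3, whose 4 peaks lay 8178 to 46411 bp downstream of its TSS, and 10.9 peaks per Mb (2.97 to 27.9). For the matrix and ETS lists the share of genes lay below that of all genes and the density above it, and the intervals of all 3 included the 6.96 per Mb of all genes. ETS1 itself was not among the genes with a peak of the set. The paper names ETS1 among the genes of its super-enhancers, the regions with most H3K27Ac. Peaks in ranked regions were left out by the rule, so that these counts do not cover all intergenic binding. Promoter peaks were found at 9 of 21, 14 of 25 and 12 of 27 genes of these 3 lists (42.9%, 56.0% and 44.4%), beside 46.9% of all coding genes.

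Lists of other lineages were counted in the same way. Of 15 lymphoid and myeloid genes, 5 had a peak (33.3%, 15.2 to 58.3%), ZAP70, a T cell kinase (2 peaks), GZMB, a granzyme (2), PAX5, a B cell factor, and CD3E, a T cell receptor subunit, among them, and 1 of the 15 had a promoter peak. The list had 28.9 peaks per Mb (11.6 to 59.5). Of 15 neuronal and 15 hepatocyte genes 0 had one, which allows a share of up to 20% in each. With 0.297 and 0.174 Mb of eligible sequence, the exact Poisson intervals of 0 peaks reach 12.4 and 21.1 per Mb, above the 6.96 of all genes.

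**Figure D5:**
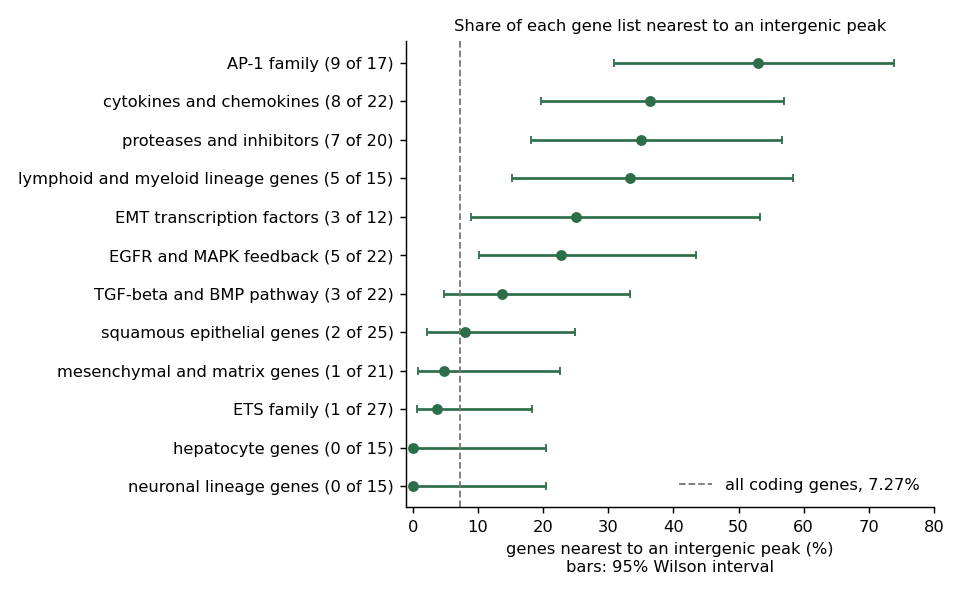
Share of the genes of each list (x axis, percent, with 95% Wilson intervals) that were nearest to at least 1 of the intergenic peaks, with the number of genes beside each name. The dashed line marks the 7.27% of all coding genes, and the AP-1 family (9 of 17) lies farthest above it.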

How the data were processed

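The 3 ETS1 ChIPs of SCC25 (2 samples with C20, 1 with 501A) were processed by the authors. Uniquely mapped reads on hg19 (Bowtie 1.1.1 and SAMtools 1.3 in the submitters' processing notes) went into MACS2 with merged input as the control, and an irreproducible discovery rate analysis kept the peaks shared by the samples. The deposited values are positions only (chromosome, start and end), in no unit of signal, and the depth of each sample is unknown from the list. The order of the list is not explained. The ranked H3K27Ac regions are those of the study, and only their positions and ranks were used.

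Genes and TSSs came from GENCODE v44 on GRCh37, and all peaks of chromosomes 1 to 22 and X lay within its chromosome lengths. Midpoints were used as positions, except for overlap with ranked H3K27Ac regions, which was judged on the whole peak. Motifs were counted as exact letters on both strands in 600 bp. Peak windows were paired with windows 5000 bp downstream, toward higher coordinates, free of peaks and gaps (124 peaks had none). The tests were exact McNemar, Fisher's exact and exact binomial tests, all two-sided, with Benjamini-Hochberg adjustment and a threshold of 0.05. Eligible sequence was sampled at every 500th base. Peaks of a neighbourhood are not independent, so that p-values are over peaks, not over samples. The code was tested on simulated data.

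The peak set, gene lists and motifs were chosen with earlier results of these data known. Genes named were the 15 with most peaks and up to 4 of each list by number of peaks and then distance. The values of 2 such genes are not reported here. Peaks named were the 5 widest and those nearest to the limits. Windows printed for list genes came from peaks with AP-1 letters beside the ETS core where the gene had such a peak. Hexamers named were the 5 with the largest and the 5 with the smallest odds ratio, with those of ETS and AP-1 letters added for their motifs. The longest run of peaks and the composite and CpG-rich windows fall outside this rule, and their choice followed a look at the values. The tools were scipy 1.17.1, pysam 0.24.0, samtools 1.23.1, pandas 2.3.3, numpy 2.4.6 and matplotlib 3.10.9 in Python 3.11.15.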

Additional observations from a re-analysis of the deposited data

How the results depend on the processing

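Of 291 values recomputed under another setting, 241 stayed the same, 27 were weaker, 6 stronger, 9 moved and 8 were reversed. For tests, the same means the same direction and call. For counts and the share of genes it means a change within a fixed fold limit only. For values that changed the cause was not tested unless the setting itself removes peaks or pairs. The AP-1 and ETS core contrasts with the downstream window kept their direction and call in all 7 alternatives. The number of peaks was 1238 with a limit of 25 kb and 767 for the first 13485 peaks of the list. It was 2920 with protein-coding genes only and 2649 with a limit of 100 kb, both within the fold limit and so counted as the same. With windows of 1000 bp, 2 motifs were lower. In the 270 pairs of like GC content 4 motifs were higher and 0 lower, 23 hexamers were higher and 29 lower, and the odds ratios of CAGGTG (0.734), NFY (1.29), SOX (1.08) and GATA (1.29) turned. With the upstream window FOX (0.992) and YY1 (2.0) turned, neither of them called, the p53 family was at 0.838 and GATA was the lower motif (0.707). For the first 13485 peaks the ETS core against ranked regions was at an odds ratio of 0.943. Without CpG-rich windows, a setting chosen after seeing the data, 15 of 92 motif comparisons between classes passed, AP-1 against gene bodies was at 0.875 and the ETS core against promoters at 0.975. With the default domains of GREAT, which reach further than the nearest TSS, 12.2% of coding genes had a peak, with 11 of 17 in the AP-1 family, 10 of 22 cytokines and chemokines, 4 of 21 mesenchymal and matrix genes and 1 of 15 hepatocyte genes. No paired analysis was possible because the samples were pooled into 1 list with no column for a sample, and for the same reason no sample could be left out. Depth per sample is unknown, and a motif or gene list at 0 is limited by the number of peaks or genes alone.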
